A study of Mus musculus with 7 samples.

Results

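MiRNA levels of Rb-depleted secondary cells were compared with those of control primary cells across the 252 mouse miRNAs of the deposited table. The comparison used 5 of the 7 arrays of the series, 3 of secondary cells and 2 of control cells, and its members were set by the labels alone. All cells came from soft tissue sarcomas of p53 knocked out mice, so every group lacked p53. Control primary cells carried a lentiviral non-target shRNA (SHC002), and Rb-depleted primary and secondary cells carried the same Rb shRNA (TRCN0000042543), after puromycin selection. Rb-depleted primary cells (2 arrays) stayed in monolayer culture. Secondary cells had in addition formed spheres in serum-free methylcellulose with EGF, bFGF and B27, and were returned to monolayer culture for 1 passage before RNA was taken. No array held secondary cells with the non-target shRNA, so the effects of Rb depletion and of the passage through spheres cannot be told apart in this comparison. The arrays carry probes for miRNAs only, and Rb mRNA was therefore not measured.

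A miRNA is cut from a hairpin in a primary transcript by Drosha and Dicer, and the arm that is loaded into Argonaute represses mRNAs that pair with its seed, bases 2 to 8. MiRNAs with the same seed form a family with largely shared targets, and neighbouring hairpins are often made from a single transcript. Rb restrains E2F transcription factors, which drive cell cycle genes and the miR-17~92 and miR-106b~25 clusters. The miR-34 genes are known as p53 targets, and miR-199, miR-214 and miR-143 and miR-145 as miRNAs of mesenchymal cells.

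Sequences are shown for miRNAs on which the results turn, to show which share a seed. All come from RefSeq (build GRCm38.p6), run 5′ to 3′, and have the seed in capitals. In the family of miR-148a, all members rose together, and miR-130a and miR-301a also share a seed and both rose:
miR-148a: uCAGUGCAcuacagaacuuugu
miR-148b: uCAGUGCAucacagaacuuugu
miR-152: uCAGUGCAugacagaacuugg
miR-130a: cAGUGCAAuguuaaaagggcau
miR-301a: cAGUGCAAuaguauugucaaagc

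The next 4 are relatives that share a seed and of which only the first of each pair passed the test:
miR-29b: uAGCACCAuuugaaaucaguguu
miR-29c: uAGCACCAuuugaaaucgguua
miR-181a: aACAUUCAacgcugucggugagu
miR-181b: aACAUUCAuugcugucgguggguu

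The next 5 are among the 12 largest rises that passed without overlap, and have 5 different seeds:
miR-196a: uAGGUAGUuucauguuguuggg
miR-132: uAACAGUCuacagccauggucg
miR-34b-5p: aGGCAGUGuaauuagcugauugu
miR-101a: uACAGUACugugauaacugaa
miR-155: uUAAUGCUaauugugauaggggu

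Of the called miRNAs with a RefSeq entry these 7 had the largest falls, and they include both arms of the miR-129 hairpin:
miR-671-5p: aGGAAGCCcuggaggggcuggag
miR-370: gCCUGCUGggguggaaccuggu
miR-188-5p: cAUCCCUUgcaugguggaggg
miR-129-3p: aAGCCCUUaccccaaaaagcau
miR-129-5p: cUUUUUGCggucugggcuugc
miR-1224: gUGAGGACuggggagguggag
miR-193b: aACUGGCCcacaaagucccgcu

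RefSeq held a mature sequence for 198 of the 252 miRNAs, and had none under the names of miR-378, miR-34c, miR-140, miR-1839-3p, miR-30d or miR-2138.

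The arrays detected between 258 and 287 mouse miRNAs each, and the summed signal of the table's miRNAs lay between 432616 and 550498 per array in arbitrary scanner units, with both control arrays above every other array. The number of arrays limits the precision of every value. Of the 8 mesenchymal miRNAs 7 were detected on all arrays, with signals of miR-199a-3p between 4031 and 6163 and of miR-143 between 1010 and 1692. MiR-145 lay lower at 91.5 to 152.4, miR-214* had 36.5 to 49.4, and the 3p arm of miR-145a was detected on no array. None of the 12 epithelial miRNAs was detected on any array, and of the 7 blood miRNAs only miR-451a was detected, on 1 array of Rb-depleted primary cells. Of the 8 striated muscle miRNAs only miR-206 was detected, and its signals of 46.3 and 47.0 in control cells and 15.4, 36.4 and 12.9 in secondary cells are low. Of 22 pluripotency miRNAs, miR-290-5p was detected in control cells and miR-302c-3p on 1 secondary array. Of 6 neural miRNAs 4 were detected in both groups, none with a call, and their summed signals were 263 and 277 in control cells and 205, 204 and 138 in secondary cells. Slide and group were not balanced. Secondary replicate 1 lay on the slide of the 4 primary arrays, and secondary replicates 2 and 3 lay alone on another slide.

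Of the 252 miRNAs, 57 (22.6%) differed between secondary and control cells at an adjusted p under 0.05 (limma, Benjamini-Hochberg), 33 (13.1%) of them higher and 24 (9.52%) lower in secondary cells, so that 57.9% of the calls were rises. The rise was at least 2-fold for 9 and the fall at least 2-fold for 11 of these. The median log2 fold change over all 252 was 0.03. The 3 secondary values and the 2 control values of a miRNA did not overlap for 131 miRNAs (52.0%), 75 (29.8%) with secondary cells higher and 56 (22.2%) with secondary cells lower. Each of the 57 called miRNAs was among these. The counts rested strongly on single arrays. Without control replicate 1 the test called 1 miRNA, which was none of the 57, and without control replicate 2 it called 11. Without secondary replicate 1 it called 16 and without secondary replicate 3 it called 26, while without secondary replicate 2 it called 74. None of the 57 could change direction in these 5 fits, since their secondary and control values did not overlap. A set of 7 miRNAs kept their call when each array other than control replicate 1 was left out, namely miR-29b, miR-148b and miR-181a, which rose, and miR-188-5p, miR-2133, miR-2138 and miR-2145, which fell. MiR-2133, miR-2138 and miR-2145 belong to the miR-2132 to miR-2146 entries described below.

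**Figure D1:**
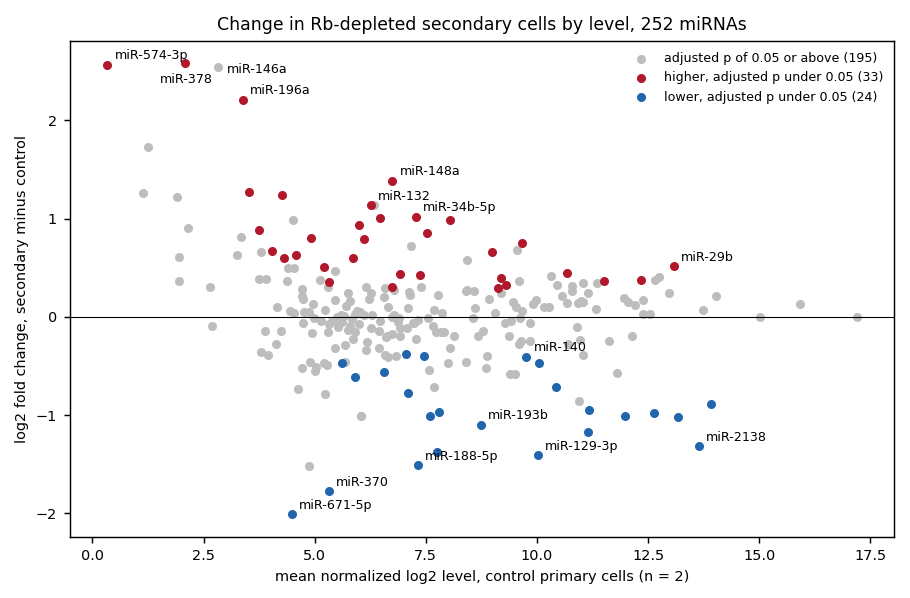
Log2 fold change between Rb-depleted secondary cells (n = 3) and control primary cells (n = 2) against the mean normalized log2 level in control cells, for each of the 252 miRNAs (points). Red points (33) were higher and blue points (24) lower at an adjusted p under 0.05, and the largest rises lie at low levels while the falls extend to levels above 13.

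Signals before normalization must be read beside these values. The deposited values were quantile normalized, which gives each array the same set of values, so that a level depends on a miRNA's rank within its array. Before normalization the median ratio of secondary to control signal was 0.728, a median shift of -0.46 on the log2 scale, and 173 miRNAs (68.7%) had all secondary signals below both control signals, while 13 (5.16%) had all of them above. All 24 miRNAs called lower had non-overlapping, lower signals. Of the 33 called higher, 10 had non-overlapping higher signals, 5 had all secondary signals below both control signals, and 22 had a higher mean signal. The rises are therefore rises relative to the other miRNAs of the same array, and for the remaining 11 the mean signal itself was lower in secondary cells. Scaling to the 75th percentile in place of quantile normalization gave 29 calls, 9 higher (31.0%) and 20 lower, and no normalization gave 114, 5 higher (4.39%) and 109 lower. Values for all miRNAs detected on any array gave 53 calls, 24 higher (45.3%) and 29 lower. MiR-132, miR-34b-5p and miR-378 were called higher under each of 4 other scalings, and 15 of the 24 falling miRNAs were called lower under each of them. Among these 15 were miR-2133, miR-2135, miR-2137, miR-2138, miR-2140 and miR-2145, from a group described below, most of whose names were later removed from miRBase.

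**Figure D2:**
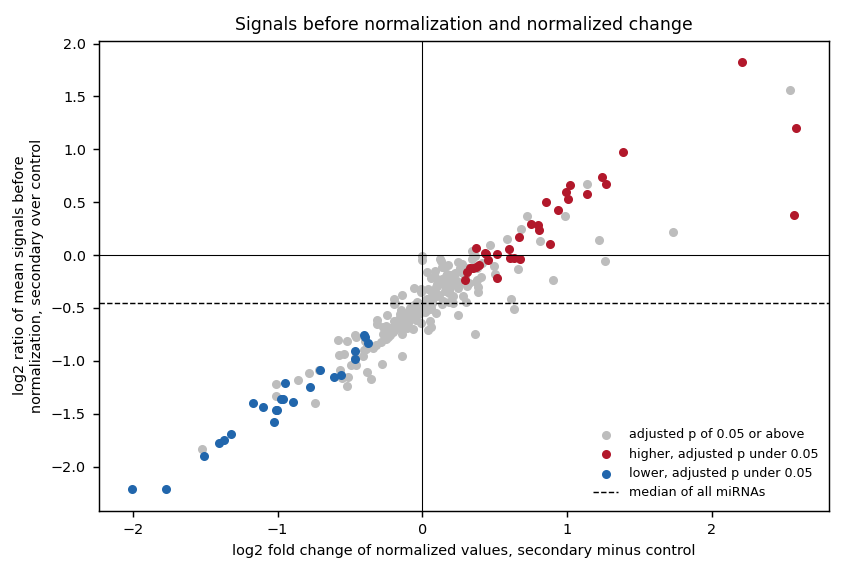
Log2 ratio of the mean signals before normalization (secondary over control) against the log2 fold change of the normalized values, for 252 miRNAs. The dashed line is the median of all miRNAs at -0.46, and all 24 miRNAs called lower lie below it, whereas 22 of the 33 called higher lie above 0.

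MiR-378, which is encoded in an intron of the metabolic regulator gene Ppargc1b, had the largest rise in the deposited values. Its normalized log2 levels were 2.01 and 2.17 in control cells and 4.44, 4.36 and 5.20 in secondary cells, while Rb-depleted primary cells had 3.25 and 2.11. The log2 fold change was 2.58 ± 0.41 (SE; 2 and 3 arrays), with an adjusted p of 0.0145. Its signals of 9.28 and 9.66 in control cells and 18.3, 16 and 31.1 in secondary cells lay near the lower end of detection, and all secondary signals were the higher ones. Its size depended on the scaling, with log2 fold changes of 1.55 after quantile normalization of the table alone, 1.59 with 75th percentile scaling, 1.14 without normalization and 2.11 over all miRNAs detected on any array, and under each of these miR-196a rose more (2.05, 2.06, 1.61 and 2.21).

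MiR-196a, a miRNA of the Hox clusters that represses Hox mRNAs, rose from log2 levels of 3.51 and 3.25 to 6.02, 4.44 and 6.30 (log2 fold change 2.21 ± 0.56, adjusted p = 0.0412). Its levels in Rb-depleted primary cells, 2.26 and 2.22, were the lowest, and the difference between secondary and Rb-depleted primary cells was 3.35 (adjusted p = 0.0172), in a comparison in which 51 miRNAs (20.2%) passed. The signals were 15.7 and 12 in control cells and 59.9, 17.7 and 69.5 in secondary cells, so that secondary replicate 2 rose least. MiR-196a is encoded by hairpins on both chromosome 11 (96126478 to 96126579, + strand, NCBIM37) and chromosome 15 (102803772 to 102803881, + strand). The other Hox-cluster miRNAs did not pass the test. MiR-10a had a log2 fold change of 0.26 and miR-10b of -0.19, and miR-615-3p had 0.90 (adjusted p = 0.158).

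MiR-574-3p had the largest log2 fold change after miR-378, 2.56 ± 0.64 (adjusted p = 0.0402), but rested on values at the limit of detection. Its log2 levels were 0.85 and -0.18 in control cells and 3.38, 1.80 and 3.51 in secondary cells. The signals were 6.4 and 4.85 in control cells and 7.07, 4.01 and 10.9 in secondary cells, which overlap. The log2 fold change was 0.73 with 75th percentile scaling and 0.52 with quantile normalization of the table alone, with adjusted p values of 0.27 and 0.357. The opposite arm of this hairpin, miR-574-5p, had a log2 fold change of 0.20 (adjusted p = 0.212).

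The 3 members of the miR-148 family, whose seed is CAGUGCA, are known to repress Dnmt1. All 3 passed the test as higher in the deposited values, against 13.1% of all miRNAs. Seed families were formed from the 198 miRNAs with a RefSeq sequence, and in none of the other 6 with at least 3 members did all pass. With 75th percentile scaling miR-148a passed (adjusted p = 0.0436), while miR-148b (0.0554) and miR-152 (0.065) did not. With slide as a term none of the 3 passed. MiR-148a went from log2 levels of 6.57 and 6.92 to 8.07, 7.58 and 8.76, a log2 fold change of 1.39 ± 0.35 (adjusted p = 0.0402). MiR-152, from an intron of Copz2, went from 7.52 and 7.51 to 8.38, 8.0 and 8.72 (0.85 ± 0.21, adjusted p = 0.0398). MiR-148b, from an intron of the paralogous gene Copz1, went from 5.82 and 5.92 to 6.4, 6.55 and 6.45 (0.60 ± 0.08, adjusted p = 0.0106). Levels in Rb-depleted primary cells stayed near control, with log2 fold changes against control of -0.05, 0.00 and 0.14. The signal ratios of secondary to control cells before normalization were 1.96 for miR-148a, 1.41 for miR-152 and 1.04 for miR-148b. Secondary replicate 2 was the lowest secondary array for miR-148a and miR-152 and the highest for miR-148b.

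The p53-linked miR-34 genes were measured in cells that lack p53. MiR-34b-5p rose from log2 levels of 7.15 and 7.39 to 8.28, 8.03 and 8.55 (1.02 ± 0.17, adjusted p = 0.0175). MiR-34c, made from the same transcript, rose from 6.4 and 6.55 to 7.51, 7.15 and 7.77 (1.01 ± 0.20, adjusted p = 0.0246). Rb-depleted primary cells lay between, at 7.51 and 7.64 for miR-34b-5p and 6.79 and 7.02 for miR-34c. Signals of miR-34b-5p were 171 and 206 in control cells and 324, 229 and 344 in secondary cells, without overlap. MiR-34a, encoded on another chromosome, had log2 levels of 4.44 and 4.59 in control cells and 5.42, 5.4 and 5.66 in secondary cells, and its log2 fold change of 0.98 did not pass the test (adjusted p = 0.0842). MiR-107 and miR-145, the other p53-linked miRNAs of the table, had -0.25 and -0.05, and neither passed. The median of these 5 was 0.98, against 0.03 over all miRNAs.

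**Figure D3:**
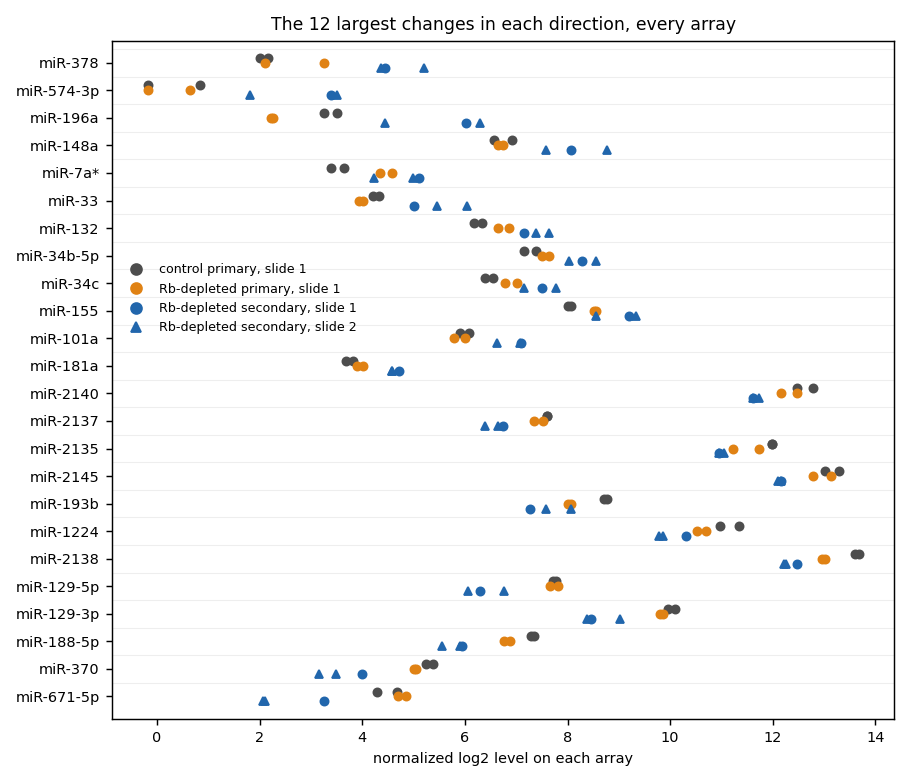
Normalized log2 level on each array for the 12 miRNAs with the largest rise and the 12 with the largest fall among those that passed the test without overlap. Grey, orange and blue stand for control primary, Rb-depleted primary and Rb-depleted secondary cells, and circles and triangles for the slide of the primary arrays and the other slide. Since rows were chosen for lack of overlap, all blue points of a row lie on one side of the grey points by choice, and the orange points show where Rb-depleted primary cells lay.

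MiR-132, a target of CREB that is known to act on Rb mRNA, rose from 6.34 and 6.17 to 7.15, 7.39 and 7.64 (1.14 ± 0.16, adjusted p = 0.0118), with Rb-depleted primary cells between at 6.85 and 6.65. Its signals went from 100 and 98.0 to 130, 144 and 169 without overlap. MiR-212, from the same transcript, had 0.25 and did not pass (adjusted p = 0.112). MiR-155, which is induced in inflammation, rose from 8.0 and 8.07 to 9.19, 8.55 and 9.34 (0.99 ± 0.24, adjusted p = 0.0398), and Rb-depleted primary cells had 8.51 and 8.55. Secondary replicate 2 was thus level with Rb-depleted primary cells, and its signal of 317 fell between the control signals of 278 and 331. MiR-146a, an NF-κB target, had the largest change of those that did not pass, 2.54 ± 1.04 (adjusted p = 0.142). Its log2 levels were 2.27 and 3.38 in control cells and 5.04, 5.01 and 6.04 in secondary cells, Rb-depleted primary cells had 3.68 and 7.10, and the widest gap lay between the Rb-depleted primary arrays.

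MiR-101a, known to repress the histone methyltransferase Ezh2, rose from 5.91 and 6.09 to 7.10, 6.62 and 7.08 (0.94 ± 0.18, adjusted p = 0.0246), whereas miR-101b had 0.31 (adjusted p = 0.123). MiR-33, in an intron of the sterol regulator gene Srebf2, rose from 4.32 and 4.2 to 5.01, 6.04 and 5.46 (1.24 ± 0.29, adjusted p = 0.0368), with secondary replicate 1 the lowest. MiR-181a rose from 3.68 and 3.81 to 4.72, 4.59 and 4.59 (0.88 ± 0.09, adjusted p = 0.0064), and its signals, 19.4 and 19.1 against 22.8, 19.1 and 20, were nearly level. Its relative miR-181b had -0.01 (adjusted p = 0.96). MiR-7a*, from an intron of Hnrnpk, rose from 3.38 and 3.64 to 5.11, 4.24 and 4.99 (1.27 ± 0.28, adjusted p = 0.0323). Its other arm, miR-7a, had -0.14 (adjusted p = 0.258).

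Among cell cycle miRNAs the changes were small. In the miR-17~92 cluster, which E2F activates, 3 of 9 members rose, against 13.1% of all miRNAs, and none fell. Those that rose were miR-18a (0.33 ± 0.07, adjusted p = 0.0323), miR-19b (0.37) and miR-20a* (0.67), and the median was 0.33. MiR-18a had log2 levels of 9.25 and 9.34 in control cells and 9.57, 9.66 and 9.63 in secondary cells, with 9.44 and 9.48 in Rb-depleted primary cells. Its signals of 731 and 786 in control cells and 640, 753 and 693 in secondary cells did not rise, and the signal ratios of miR-19b and miR-20a* were 0.922 and 0.973. Without normalization the log2 fold changes of these 3 were below 0, at -0.13, -0.11 and -0.03. None of the 4 members of the miR-106b~25 cluster passed, and miR-25 had 0.15 (adjusted p = 0.172). Of the 7 members of the miR-15/16 family only miR-15a passed, a share near the 13.1% of all miRNAs. It went from 9.61 and 9.73 to 10.69, 10.05 and 10.52 (0.75 ± 0.20, adjusted p = 0.0461). With 75th percentile scaling its log2 fold change was 0.73 (adjusted p = 0.0623). In the let-7 family all 11 members had a log2 fold change above 0, from 0.03 to 1.73 with a median of 0.21, yet only the minor arm let-7a* passed (0.60, adjusted p = 0.0335). Over all 252 miRNAs, 135 had a log2 fold change above 0.

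MiR-29b, which represses collagen mRNAs, rose from 13.03 and 13.14 to 13.60 on each secondary array (0.52 ± 0.07, adjusted p = 0.0106), while its signals were 12731 and 13588 in control cells and 11436, 12429 and 10194 in secondary cells, each secondary signal being the lower. MiR-29a and miR-29c, with the same seed, had 0.07 and -0.25 and did not pass. Both members of the family of miR-130 and miR-301 in the table rose, against 13.1% of all miRNAs. MiR-130a rose by 0.45 and miR-301a by 0.39 on the log2 scale, with signal ratios of 0.969 and 0.940. The arrays held 6 entries of this family, of which 3 were detected on control arrays and 3 on secondary arrays. In the mesenchymal list of miR-199 and miR-214 2 of 5 passed, miR-199a-3p (0.37) and miR-214* (0.35), against the same 13.1%. In miR-232724 only miR-27b (0.66) of 7 passed, which is near that share. MiR-30d (0.43) and miR-125a-5p (0.29) were the only members of their lists of 7 to pass, also near that share. MiR-1839-3p rose from 4.93 and 4.90 to 5.57, 5.70 and 5.88 (0.80 ± 0.11, adjusted p = 0.0106), and Rb-depleted primary cells were at 5.49 and 5.52.

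MiR-671-5p had the largest fall in the deposited values, while miR-370 fell more than it under each of the 4 other scalings (from -2.23 to -1.77, against -2.20 to -1.69) and with slide as a term. MiR-671-5p overlaps an exon of Chpf2 on chromosome 5 (24097932 to 24098029, + strand, NCBIM37). Its log2 levels were 4.67 and 4.30 in control cells and 3.25, 2.11 and 2.07 in secondary cells, a log2 fold change of -2.01 ± 0.39 (adjusted p = 0.0246), and Rb-depleted primary cells had 4.70 and 4.84. The signals went from 33.2 and 25.4 to 6.4, 5.79 and 6.79. The lowest signals detected on these secondary arrays were 5.37, 3.81 and 3.47. The normalized level was 4.02-fold lower, a size that rests on secondary values near the limit of detection. MiR-370, from an intron of the maternally expressed RNA Rian (chromosome 12, 110856468 to 110856546, + strand), fell from 5.38 and 5.24 to 3.99, 3.48 and 3.16 (-1.77 ± 0.24, adjusted p = 0.0106), with 5.01 and 5.04 in Rb-depleted primary cells. Against Rb-depleted primary cells miR-671-5p differed by -2.30 and miR-370 by -1.49, both with an adjusted p of 0.0172.

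MiR-370 stood apart from its neighbours in the Dlk1-Dio3 cluster of imprinted, maternally expressed miRNAs. Of the 37 cluster members in the table, 3 fell, against 9.52% of all miRNAs, and 1 rose. Their median was -0.18, and 28 had a log2 fold change below 0, against 117 of all 252. In Rb-depleted primary cells against control the median of the cluster was lower still, at -0.52, against 0.01 over all miRNAs. The other members that fell were miR-409-3p (-0.56, adjusted p = 0.0402) and miR-337-3p (-0.37, adjusted p = 0.0323). MiR-136 rose from 6.92 and 6.90 to 7.42, 7.34 and 7.29 (0.44 ± 0.08, adjusted p = 0.0212), and its levels in Rb-depleted primary cells, 6.36 and 6.24, were the lowest. Its difference from those cells was 1.05 (adjusted p = 0.0052). Against control the log2 fold change of miR-136 was 0.01 without normalization and 0.46 with 75th percentile scaling (adjusted p = 0.0988).

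Both arms of the miR-129 hairpin fell alike. MiR-129-3p went from 9.95 and 10.10 to 8.46, 8.38 and 9.02 (-1.41 ± 0.21, adjusted p = 0.0119), and miR-129-5p from 7.77 and 7.72 to 6.30, 6.06 and 6.77 (-1.37 ± 0.21, adjusted p = 0.0132). Rb-depleted primary cells were near control for both, at 9.81 and 9.87 and at 7.66 and 7.81. The 3p arm is cut from the hairpin on chromosome 2 (94081521 to 94081610, - strand, NCBIM37), whereas the 5p sequence is also made from a hairpin on chromosome 6. Secondary replicate 3 had the highest secondary level of each arm. Of 38 hairpins with both arms in the table, the miR-129 and miR-140 hairpins were the only 2 with both arms called, and 31 had log2 fold changes of the same sign on both arms.

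MiR-188-5p, in an intron of the chloride channel gene Clcn5 on chromosome X (6825115 to 6825182, - strand, NCBIM37), fell from 7.34 and 7.29 to 5.95, 5.91 and 5.56 (-1.51 ± 0.14, adjusted p = 0.0064), and Rb-depleted primary cells lay between at 6.77 and 6.88. Its signals were 181 and 191 in control cells and 54.6, 53.7 and 41.8 in secondary cells. MiR-362-3p (0.80 ± 0.11, adjusted p = 0.0106) and miR-500 (0.31 ± 0.08, adjusted p = 0.0461), from the same intron, rose in the normalized values. The signals of miR-362-3p did not overlap and were higher in secondary cells, whereas those of miR-500 were 132.5 and 130.8 in control cells and 124.3, 114.6 and 115.7 in secondary cells, each secondary signal being the lower, and its log2 fold change without normalization was -0.16. MiR-193b, a miRNA of brown fat and muscle differentiation, fell from 8.76 and 8.72 to 7.27, 8.07 and 7.58 (-1.10 ± 0.23, adjusted p = 0.0290). Its levels in Rb-depleted primary cells were 8.07 and 8.0, and secondary replicate 2 was level with them. MiR-193 and miR-365 of the same list had -0.06 and -0.27 and did not pass. MiR-1224, from an intron of Vwa5b2, fell by 1.17 ± 0.20 on the log2 scale (adjusted p = 0.0175), and miR-224, from an intron of the GABA receptor gene Gabre, by 0.78 ± 0.11 (adjusted p = 0.0119).

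Both arms of miR-140, which is encoded in an intron of Wwp2 and known for its role in cartilage, fell by less. MiR-140 had log2 levels of 9.76 on each control array and 9.37, 9.44 and 9.25 in secondary cells (-0.40 ± 0.08, adjusted p = 0.0259), below control but above the 9.08 and 9.10 of Rb-depleted primary cells. MiR-140* had 10.05 on each control array and 9.55, 9.73 and 9.47 in secondary cells (-0.47 ± 0.10, adjusted p = 0.0288), a range that spans the 9.53 and 9.57 of Rb-depleted primary cells. The differences between secondary and Rb-depleted primary cells did not pass, at 0.26 (adjusted p = 0.0702) for miR-140 and 0.03 (adjusted p = 0.852) for miR-140*.

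A group of abundant entries numbered miR-2132 to miR-2146, chosen after its values were seen, held many of the falls. Most of these names were later removed from miRBase because they match ribosomal RNA. Of the 10 in the table, 8 fell, against 9.52% of all miRNAs, and none rose, with a median of -0.96 and a range from -1.32 to -0.10. MiR-2138 went from 13.60 and 13.68 to 12.48, 12.27 and 12.21 (-1.32 ± 0.10, adjusted p = 0.0063), with Rb-depleted primary cells between at 13.03 and 12.96, and its signals were 15812 and 15682 in control cells and 5609, 4611 and 4369 in secondary cells. MiR-2145, miR-2135, miR-2137 and miR-2140 had log2 fold changes of -1.02, -1.01, -1.01 and -0.98. The median over the 10 was -0.90 on secondary replicate 1 and -0.98 on the other secondary arrays.

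**Figure D4:**
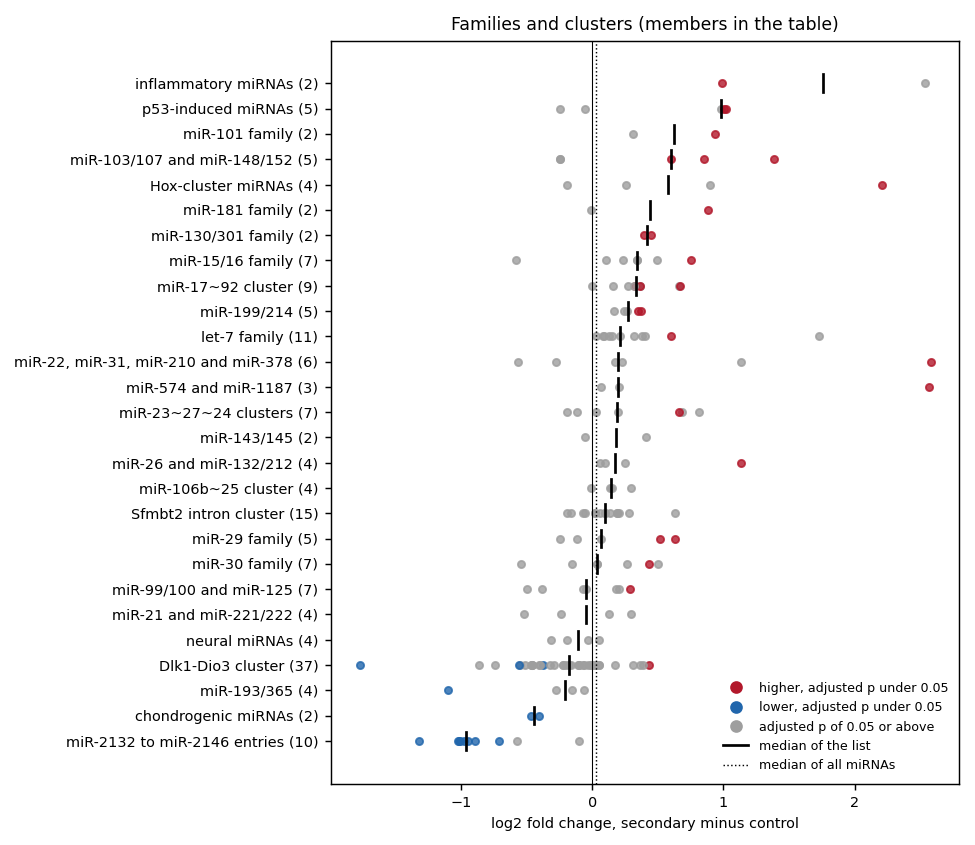
Log2 fold change between secondary and control cells for the members (points) of each list of related miRNAs with at least 2 members in the table, with the median of the list (bar) and of all 252 miRNAs (dotted line, 0.03). Red and blue points passed the test. The miR-2132 to miR-2146 entries lie lowest with a median of -0.96, and within most lists called members stand beside members that did not pass.

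Some groups had no call. None of the 15 members from the Sfmbt2 intron passed, with a median of 0.10 and a range from -0.19 to 0.63. MiR-21, the most abundant of these oncogenic miRNAs, had 0.13 (adjusted p = 0.538), and miR-221 and miR-222 had -0.23 and -0.52 and did not pass. MiR-143 and miR-145 had 0.41 and -0.05. MiR-210, which is induced by hypoxia, had log2 levels of 6.36 and 6.32 in control cells and 6.96, 7.91 and 7.56 in secondary cells, and its log2 fold change of 1.13 ± 0.32 did not reach the threshold (adjusted p = 0.0561).

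The secondary array that shared the slide of the control arrays was read separately, without a test. On it, 17 miRNAs (6.75%) lay at least 2-fold above the mean of the control arrays and 12 (4.76%) at least 2-fold below, and its median difference over all miRNAs was 0.06. Over all miRNAs, 206 of 252 lay outside the 2 control values on this array, and the 57 called miRNAs did so by their lack of overlap. Of the 33 rises 10 and of the 24 falls 10 reached at least 2-fold on it. MiR-378 differed by 2.35 on this array and by 2.69 on the other secondary arrays, miR-196a by 2.64 and 1.99, miR-188-5p by -1.36 and -1.58, and miR-129-3p by -1.57 and -1.32. For 15 of the 24 falls, 12 of the 33 rises and 111 of all 252 miRNAs the difference was smaller in size on this array than over the other secondary arrays, as for miR-671-5p with -1.23 against -2.39 and miR-370 with -1.33 against -1.99. The signals of miR-671-5p before normalization were nearly level, however, at 6.4 on this array and 5.79 and 6.79 on the others, near the limit of detection. A fit with slide as a term, in which the contrast rests on this array, called 6 miRNAs at an adjusted p under 0.05 and 76 at an unadjusted p under 0.05. Of the 57 it kept miR-181a, miR-188-5p, miR-370, miR-2133 and miR-2138. None of the 57 could change direction in it, since this array lay outside the control values for each of them.

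Outside the table, 444 mouse miRNAs of the arrays were not detected on all 7, and 384 of them on none. Of the 444, 55 were detected on at least 1 of the 5 compared arrays, and 8 of these on both control arrays and on no secondary array. MiR-721 had signals of 41.8 and 38.9 in control cells and 12.5 on 1 of the Rb-depleted primary arrays. MiR-3472 had 21.2 and 15.1 in control cells and 12 on the same array of Rb-depleted primary cells. The other 6 were miR-1306-3p, miR-138-5p, miR-676-3p, miR-290-5p, miR-322-3p and the endothelial miR-126-3p, with control signals between 7.11 and 57.3, and all but miR-290-5p were detected on both Rb-depleted primary arrays. The lowest signal detected on any array was 3.38, and on secondary replicates 1, 2 and 3 it was 5.37, 3.81 and 3.47. Several of the control signals, those of miR-322-3p in particular, thus lay close to the limit. The opposite pattern was shown by miR-146b-5p and miR-455-3p.

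**Figure D5:**
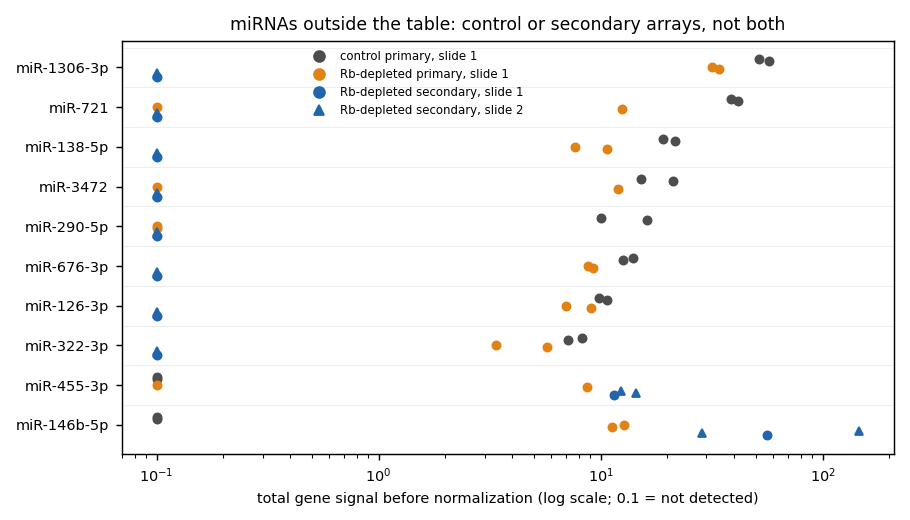
Total gene signal before normalization (log scale) on each array for the 10 miRNAs outside the table that were detected on both control and no secondary arrays or the reverse. A signal of 0.1 stands for not detected, colours are groups and shapes are slides. Of the 10, 8 have both control points on the right and all secondary points at 0.1.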

How the data were processed

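RNA of 7 cultures (2 control primary, 2 Rb-depleted primary, 3 Rb-depleted secondary) was hybridized to 1-colour Agilent mouse miRNA arrays. The submitters' notes give Feature Extraction 10.7.3.1 and the file headers 11.0.1.1. The authors deposited log2 values, quantile normalized in GeneSpring, for 252 mouse miRNAs and 11 control rows (left out), and the scanner's intensity for every spot and miRNA. The labels call replicates independent experiments. The table holds the miRNAs detected on all arrays; its older names were matched to the scanner names by repeating the normalization over 718 features, which gave the deposited values to within 3.24e-06.

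All 7 arrays entered a linear model of the 3 groups in R 4.3.3 with limma 3.58.1 (empirical Bayes, Benjamini-Hochberg adjustment over 252 miRNAs, threshold 0.05, two-sided). Errors are standard errors of this fit. Tables were made with Python 3.11.15 and pandas 2.3.3, and statmod 1.5.0 and mvtnorm 1.3.3 served the alternatives. The code was tested on simulated data. Named miRNAs are the 12 largest changes in each direction that passed without overlap, and members of the lists that passed or changed most. They also include the other arm of some named hairpins, the miRNAs the paper lists, and miRNAs outside the table found by detection alone. The others were chosen after their values were seen. Lists were summarized without a test. The comparisons with control and with Rb-depleted primary cells share the secondary arrays. Members, lists and tests were chosen with earlier results of these data known. Loci are from GENCODE on NCBIM37.

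The alternatives were quantile normalization of the table alone, 75th percentile scaling, no normalization, all miRNAs detected on any array with a floor of 1, the 5 compared arrays alone, unmoderated statistics, trend and robust moderation, array weights, analysis of variance with Dunnett's test, the replicate number as a block, slide as a term, thresholds of 0.1 and 0.01, and each array left out in turn.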

Additional observations from a re-analysis of the deposited data

Results flagged for a closer look

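A pair of miRNAs outside the table gave a signal on every secondary array and on no control array. MiR-146b-5p had a lowest secondary signal of 28.7, with 56.2, 28.7 and 146 on the secondary arrays and 11.3 and 12.8 on the Rb-depleted primary arrays. MiR-455-3p had a lowest secondary signal of 11.4, with 11.4, 14.4 and 12.3 on the secondary arrays and 8.67 on 1 of the Rb-depleted primary arrays. Neither was tested, since they are not in the normalized table.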

How the results depend on the processing

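The count of 57 calls (33 higher, 24 lower) was within 1.5 times under quantile normalization of the table alone, all miRNAs detected on any array (53 of 312, 45.3% higher), trend and robust moderation, array weights, Dunnett's test and a threshold of 0.1. It was 29 (9 and 20) with 75th percentile scaling, 114 (5 and 109) without normalization, 34 (15 and 19) with unmoderated statistics, 6 (2 and 4) with slide as a term, 4 (1 and 3) at 0.01, and 49 (21 higher, 28 lower) with the 5 compared arrays alone. With 1 array left out, the counts ran from 1 to 74 in all, from 1 to 40 higher and from 0 to 34 lower; where 1 control array was left, it was assumed to vary like the other groups. Of the 33 rises, 8 kept their call with 75th percentile scaling and 5 without normalization; of the 24 falls, 17 and 24 did. The causes were not tested.

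The labels give control and secondary arrays the same replicate numbers 1 and 2. The deviations of same-numbered arrays were not correlated over miRNAs (r = 0.074 and -0.084). The deviations of the 2 control arrays mirror each other, and secondary replicates 1 and 2 lay on different slides, so these values cannot exclude a pairing. The main fit did not take the numbers to pair the samples. With the replicate block 4 miRNAs were called (0 higher, 4 lower) by limma, and 68 had an unadjusted p under 0.05.

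Without normalization the log2 fold change turned negative for miR-125a-5p (-0.24), miR-29b (-0.22), miR-500 (-0.16), miR-18a (-0.13), miR-214* (-0.12), miR-19b (-0.11), miR-301a (-0.09), miR-130a (-0.05), let-7a*, miR-20a* and miR-29a* (each -0.03), and, among the miRNAs recomputed singly that did not pass, miR-106b* (-0.45), miR-466f-3p (-0.39), miR-25 (-0.29) and miR-143 (-0.09). These are not all that would turn, since 135 of the 252 had a log2 fold change above 0 and 33 a higher mean signal before normalization. MiR-106b* also turned with quantile normalization of the table alone (-0.11) and ran from -0.22 to 0.82 with 1 array left out, miR-466f-3p ran from -0.35 to 1.61, and miR-9* became positive with the replicate block (0.25), with slide as a term (0.20), and ran from -0.62 to 0.25 with 1 array left out.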
